A study of Mus musculus with 2 samples.

Results

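SR proteins and nuclear speckle genes were followed in mouse Th17 cells that lack Malat1. The set holds 32 genes, listed by name as SR and SR-like splicing factors, CLK kinases, speckle scaffolds and early spliceosome factors, and all 32 were found by gene name among the 16385 genes of the deposited table. The measured libraries were 2 biological replicates of Malat1KO_Th17, C57BL/6 naive CD4+ T cells with a Malat1 knockout, kept for 72 h under Th17 conditions and sequenced as ribosome-depleted total RNA. Both received IL-6 at 20 ng/mL and TGF-β at 0.1 ng/mL, on plates with antibodies to CD28 at 1 µg/mL and to CD3ε at 0.25 µg/mL. The wild-type Th17 libraries of the authors' comparison come from another series and were not read here. Genotype and series are the same split, so the effect of one cannot be told apart from that of the other. For replicate 2 the treatment field reads Malat2, whereas the title reads Malat1. The title was followed, and as Malat1 is not analysed here, genotype was taken from the titles alone. The kind of knockout allele, the age and sex of the mice and any pooling of animals were not stated in the labels.

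SR proteins bind exonic sequences through RNA recognition motifs and recruit the spliceosome through a tail of alternating arginine and serine residues, the RS domain. CLK kinases phosphorylate that tail, which releases SR proteins from nuclear speckles, the bodies that store splicing factors around the scaffold proteins SON and SRRM2. Malat1 RNA accumulates in nuclear speckles and binds SR proteins, and the comparison asked which transcripts differ in its absence. Several SR protein genes limit their own output by including a so-called poison exon, which sends the transcript to nonsense-mediated decay.

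The RS domain is visible in the coding sequences themselves. The stretches shown are, for each gene, the 30 codons of a single coding exon richest in arginine codons next to serine codons, written 5′ to 3′ on the coding strand, with the codons of such pairs in capitals. They come from the GENCODE M21 transcripts on GRCm38. Srsf1 and Srsf2 are shown as the genes of the set with the smallest p-values, Srrm2 as the gene with the highest fold change, Son as the repeat-rich scaffold, and Ddx39b as a member with almost no such pairs.
Srsf1, chr11:88049466-88049555 (+): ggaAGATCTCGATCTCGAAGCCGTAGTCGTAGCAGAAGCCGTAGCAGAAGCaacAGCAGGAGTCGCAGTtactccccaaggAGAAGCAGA
Srsf2, chr11:116852226-116852315 (-): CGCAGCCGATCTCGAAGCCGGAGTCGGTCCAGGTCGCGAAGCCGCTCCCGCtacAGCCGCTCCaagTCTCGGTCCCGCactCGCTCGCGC
Srrm2, chr17:23815983-23816072 (+): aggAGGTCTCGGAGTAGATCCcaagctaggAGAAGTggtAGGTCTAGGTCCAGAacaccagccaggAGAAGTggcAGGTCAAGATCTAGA
Son, chr16:91660301-91660390 (+): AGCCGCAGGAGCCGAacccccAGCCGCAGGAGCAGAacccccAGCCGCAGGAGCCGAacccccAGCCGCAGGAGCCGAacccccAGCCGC
Ddx39b, chr17:35252965-35253054 (+): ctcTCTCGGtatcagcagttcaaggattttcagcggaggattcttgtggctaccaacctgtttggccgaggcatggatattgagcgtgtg

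In these windows 24 of 30 codons in Srsf1 and 27 of 30 in Srsf2 belonged to arginine-serine pairs, against 2 of 30 in Ddx39b. Over whole coding sequences the 32 genes had a median of 6.78 pairs per 100 codons, against 0.769 in 10949 protein-coding genes whose mean normalized count was 50 or more. The classical SR proteins ranged between 4.05 pairs per 100 codons in Srsf9 and 23.5 in Srsf2. Clk4 (1.87), Rbm25 (0.835), Sf3b1 (0.383) and Ddx39b (0.234) were the 4 members at or below the 95th percentile of protein-coding genes, 2.01 pairs per 100 codons. The set is thus rich in RS codons, as its choice by protein family fixes, with few such pairs in Sf3b1 and Ddx39b. Across the 32 genes, pair content and the log2 fold change described below had a Spearman correlation of -0.16 and a Pearson correlation of -0.090, given as a description across genes.

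**Figure D1:**
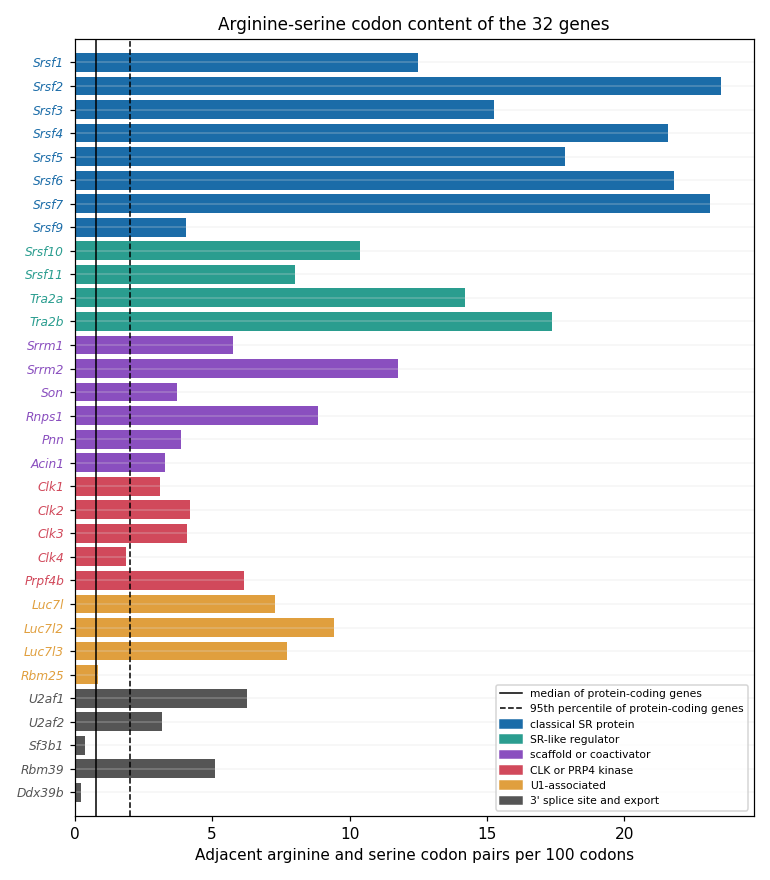
Adjacent arginine and serine codon pairs per 100 codons (x axis) in the coding sequence of each of the 32 genes (y axis), coloured by role; the solid line marks the median (0.769) and the dashed line the 95th percentile (2.01) of protein-coding genes. Srsf2, Srsf7, Srsf6 and Srsf4 carry the densest repeats, and Clk4, Rbm25, Sf3b1 and Ddx39b lie left of the dashed line.

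The knockout libraries held 21554852 (replicate 1) and 26916169 (replicate 2) counts, and the 32 genes took 0.669% and 0.711% of them. The T cell and Th17 markers Cd3d, Cd3e, Cd3g, Cd4, Cd2, Lck, Il17a, Il17f, Rora, Il23r and Ccr6 were all present. Their summed normalized count was 148865 and 143877 in knockout libraries and 124146 in the implied wild-type mean. That mean is the value that the authors' mean over 4 libraries and both knockout values leave for wild type. By the authors' deposited table all 11 fold changes lay above 0, with a median of 0.15 on the log2 scale, where 50.9% of genes with a mean of at least 50 lay below 0. Il17f alone of the 11 passed the authors' test, at 0.40 (SE 0.081, adjusted p 0.00124, DESeq2), where 0.159% of genes with an adjusted p passed. Markers of B cells summed to 8.71 and 7.59 normalized counts in knockout libraries and 20.96 in the implied wild-type mean, with all 5 at means under 50. The 6 myeloid markers summed to 64.8 and 82.7 in knockout libraries and 96.5 in the implied wild-type mean, and the 5 CD8 and NK markers to 316 and 332 in knockout libraries and 365 in the implied wild-type mean. The 9 kidney tubule markers summed to 57.1 and 54.6 in knockout libraries and 31780 in the implied wild-type mean, with Lrp2, Umod and Slc22a6 at 0 counts in both knockout libraries. The 8 fibroblast and smooth muscle markers summed to 119 and 96.4 in knockout libraries and 15211 in the implied wild-type mean, with Col1a2 at 0 counts in both knockout libraries. In 7 of the 9 kidney tubule markers and 6 of the 8 others the knockout mean was under 2% of the implied wild-type mean. Dcn was not lower in this way, with 61.9 and 48.6 normalized counts in knockout libraries against 55.9. Actg2 alone of these markers passed the authors' test (log2 fold change -6.97, SE 1.47, adjusted p 0.00223, DESeq2). Most kidney and connective tissue markers were thus far higher in the implied wild-type mean, and their part in the results was not tested. That mean does not show whether each wild-type library held them.

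No gene of the set passed the authors' test. By the authors' deposited table, 0 of 32 had an adjusted p under 0.05 (DESeq2 Wald test, Benjamini-Hochberg), where 0.159% of the 14481 genes with an adjusted p passed in either direction. At an unadjusted p under 0.05, 2 of the 32 were lower, Srsf1 and Srsf2, and 0 were higher, against 1.72% of all genes lower and 0.391% higher in the authors' deposited table, and 1.9% lower among genes with a mean of at least 50. The fold changes were small and mostly to 1 side. By the authors' deposited table, 28 of 32 lay below 0, where 55.9% of all genes and 50.9% of genes whose mean normalized count was 50 or more did. At a mean no lower than that of Clk4, the lowest gene of the set, the share below 0 was 46.5% of 5328 genes. The median log2 fold change, knockout over wild type, was -0.090 over the 32 genes, -0.031 over all genes and -0.0032 over genes with a mean of at least 50, by the authors' deposited table.

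Each knockout library was also set against the implied wild-type mean. That mean comes from the same fit as the fold changes, so a like direction of the knockout mean is built in. The distances of the 2 libraries from it were unequal. Both knockout libraries lay below the implied wild-type mean in 26 of the 32 genes, where 37.9% of the 10978 genes with a mean of at least 50 did so. They lay above it in Srrm2, Acin1 and Ddx39b, where 33.6% of those genes did so, and on either side of it in Srsf4, Srsf5 and Clk3. Replicate 1 lay farther down than replicate 2: the median log2 ratio of the library to the implied wild-type mean was -0.15 for replicate 1 and -0.066 for replicate 2. The size of the shift therefore depended on which knockout library was taken. In bulk RNA, fewer cells with a transcript and less of it per cell cannot be told apart.

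**Figure D2:**
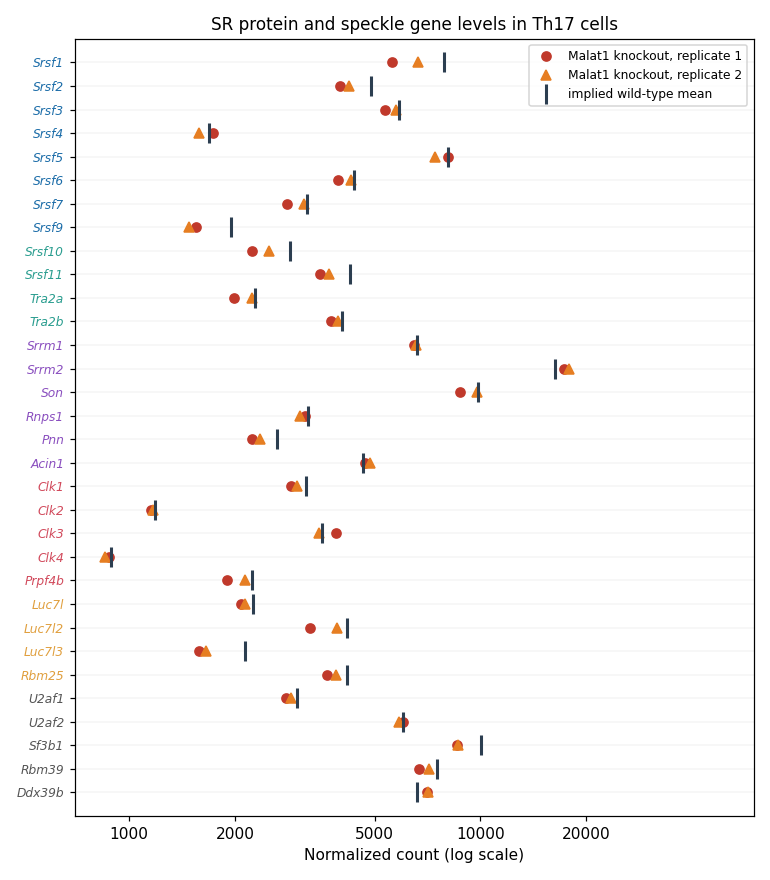
Normalized count (x axis, log scale) of the 32 genes (y axis, gene names coloured by role) in knockout replicate 1 (circles) and replicate 2 (triangles), with the implied wild-type mean as a vertical bar. Both knockout symbols lie left of the bar in 26 genes, with wide gaps in Srsf1, Srsf9 and Luc7l3, and right of it in Srrm2, Acin1 and Ddx39b.

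The classical SR proteins, RNA-binding activators of exon inclusion, were abundant, and all 8 fold changes lay below 0. Srsf1, the founding member of the family, had normalized counts of 5590 and 6634 in knockout libraries and an implied wild-type mean of 7873. Both knockout libraries lay below that mean, and they also differed from each other more than 82.3% of genes with a mean of at least 50 did. The authors' deposited table gives Srsf1 a log2 fold change of -0.36 (SE 0.10, 95% interval -0.56 to -0.17), a level 22.3% lower, with an unadjusted p of 0.000331 and an adjusted p of 0.147 (DESeq2). A smaller p was held by 30 of the genes with a mean of at least 50. The log2 ratio to the implied wild-type mean was -0.49 for replicate 1 alone and -0.25 for replicate 2 alone. Srsf1 lies on chromosome 11, 88047373 to 88053755 (GRCm38, ENSMUSG00000018379.17).

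Srsf2, also called SC35 and long used to mark speckles, had 3973 and 4233 normalized counts in knockout libraries against an implied wild-type mean of 4871. Its log2 fold change in the authors' deposited table was -0.25 (SE 0.12, 95% interval -0.49 to -0.0069) with an unadjusted p of 0.0438 and an adjusted p of 1.00 (DESeq2). Srsf2 lies on chromosome 11, 116849901 to 116853094 (GRCm38), and overlaps Mettl23 and Mfsd11 on the other strand. How the counting treated strand is not stated in the labels, so reads of these genes cannot be told apart.

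Srsf9 had 1551 and 1482 normalized counts in knockout libraries, both under the implied wild-type mean of 1943. Its fold change in the authors' deposited table, -0.34, was close to that of Srsf1, but its SE of 0.25 gave an unadjusted p of 0.178. The knockout replicates of Srsf9 lay close together, and the spread of the wild-type libraries around their implied mean is not known here.

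The other classical members lay nearer to 0. Srsf3 had 5364 and 5743 normalized counts in knockout libraries against an implied wild-type mean of 5884. Srsf6 had 3925 and 4281 against 4369, and Srsf7 had 2805 and 3143 against 3218. In these 3 genes replicate 2 came within a few percent of the implied wild-type mean. Their log2 fold changes in the authors' deposited table were -0.084 (SE 0.12) for Srsf3, -0.091 (SE 0.12) for Srsf6 and -0.12 (SE 0.16) for Srsf7.

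Srsf4 and Srsf5 had knockout libraries on both sides of the implied wild-type mean. Srsf4 had 1729 and 1583 normalized counts in knockout libraries against 1689, and Srsf5 had 8098 and 7447 against 8095. Srsf5 was the most abundant transcript of the set per length, with 1949 normalized counts per kilobase of merged exons in the knockout mean. The authors' deposited table gives -0.030 (SE 0.19) for Srsf4 and -0.059 (SE 0.11) for Srsf5.

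The SR-like regulators, whose products act in splicing without being counted among the classical family, also had all 4 fold changes below 0. Srsf11 had 3501 and 3716 normalized counts in knockout libraries against an implied wild-type mean of 4258. Srsf10, which in its dephosphorylated form represses splicing, had 2241 and 2496 against 2876. In both genes the knockout libraries lay together below the implied wild-type mean. The authors' deposited table puts Srsf11 at -0.24 (SE 0.13, p = 0.0602) and Srsf10 at -0.28 (SE 0.16, p = 0.0708), unadjusted by DESeq2. Tra2a and Tra2b, which bind purine-rich exonic enhancers, stood at 2113 ± 173 and 3837 ± 128 normalized counts in knockout cells (SD, n = 2), with -0.11 (SE 0.18) and -0.071 (SE 0.15) in the authors' deposited table.

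The scaffolds and SR-related coactivators did not share a direction. Srrm2, a core scaffold of speckles, was the most abundant gene of the set in normalized counts, with 17312 and 17887 in knockout libraries against an implied wild-type mean of 16327. Both knockout libraries lay above that mean, and the authors' deposited table gives a log2 fold change of 0.11 (SE 0.079, 95% interval -0.048 to 0.26, unadjusted p = 0.174). Pnn, which encodes pinin, lay the other way, with 2239 and 2351 normalized counts in knockout libraries against 2639. Its log2 fold change in the authors' deposited table was -0.20 (SE 0.16, unadjusted p = 0.195). Son, the other core scaffold, stood at 9253 ± 729 normalized counts in knockout cells (SD, n = 2) and -0.089 (SE 0.097) in the authors' deposited table. Srrm1, a coactivator that bridges splicing factors, stood at 6525 ± 54.1, and Rnps1 and Acin1, which associate with the exon junction complex, at 3112 ± 63.3 and 4771 ± 121 (SD, n = 2 for each). Their fold changes in the authors' deposited table were -0.013 (SE 0.12), -0.050 (SE 0.14) and 0.042 (SE 0.12).

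The 5 kinases had a median log2 fold change of -0.044 in the authors' deposited table, with 4 below 0. Prpf4b, the PRP4 kinase of the spliceosome, had 1892 and 2133 normalized counts in knockout libraries against an implied wild-type mean of 2230. Clk1 had 2892 and 2995 against 3190. Both knockout libraries lay below the implied wild-type mean in either gene, and the authors' deposited table gives -0.15 (SE 0.17, unadjusted p = 0.376) for Prpf4b and -0.12 (SE 0.15, unadjusted p = 0.441) for Clk1. The CLK paralogs differed in level. Clk3 was the highest per length in the knockout mean, at 435 normalized counts per kilobase, then Clk1 at 362, Clk2 at 219 and Clk4 at 149. In the authors' deposited table Clk3 stood at 0.056 (SE 0.14), Clk2 at -0.032 (SE 0.22) and Clk4 at -0.044 (SE 0.25). Clk4 had the widest interval of the set and also the fewest counts, 902 and 1123 in the knockout libraries.

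The factors that act at the 5′ splice site with U1 snRNP, the 3 LUC7-like proteins and RBM25, had all 4 fold changes below 0. Luc7l3 had 1579 and 1649 normalized counts in knockout libraries against an implied wild-type mean of 2134. Its log2 fold change in the authors' deposited table, -0.38 (SE 0.22, 95% interval -0.81 to 0.048, unadjusted p = 0.0817), was the lowest of the set. Luc7l2 had 3269 and 3917 normalized counts in knockout libraries against 4177, so that its replicates differed by 0.26 on the log2 scale, the most of any member. The authors' deposited table puts Luc7l2 at -0.22 (SE 0.15, unadjusted p = 0.134). Luc7l and Rbm25 stood at 2113 ± 41.1 and 3770 ± 158 normalized counts in knockout cells (SD, n = 2), with -0.086 (SE 0.17) and -0.14 (SE 0.13) in the authors' deposited table.

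Of the factors that recognise the 3′ splice site and branch point or follow them in mRNA export, Sf3b1 had the lowest fold change. Sf3b1, the branch-point protein of U2 snRNP, had 8590 and 8640 normalized counts in knockout libraries against an implied wild-type mean of 10070. Its replicates were nearly equal, and the authors' deposited table gives -0.22 (SE 0.13, unadjusted p = 0.0965). Rbm39, a U2AF-related coactivator, had 6671 and 7124 normalized counts in knockout libraries against 7550, with -0.13 (SE 0.10, unadjusted p = 0.203) in the authors' deposited table. U2af1 and U2af2, the subunits of the U2AF heterodimer, stood at 2840 ± 60.1 and 5941 ± 96.4 normalized counts in knockout cells (SD, n = 2). Their fold changes in the authors' deposited table were -0.085 (SE 0.15) and -0.020 (SE 0.11). Ddx39b, the helicase UAP56 of splicing and export, stood at 7060 ± 37.4 normalized counts in knockout cells (SD, n = 2), with a fold change of 0.094 (SE 0.10) on the log2 scale of the authors' deposited table.

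**Figure D3:**
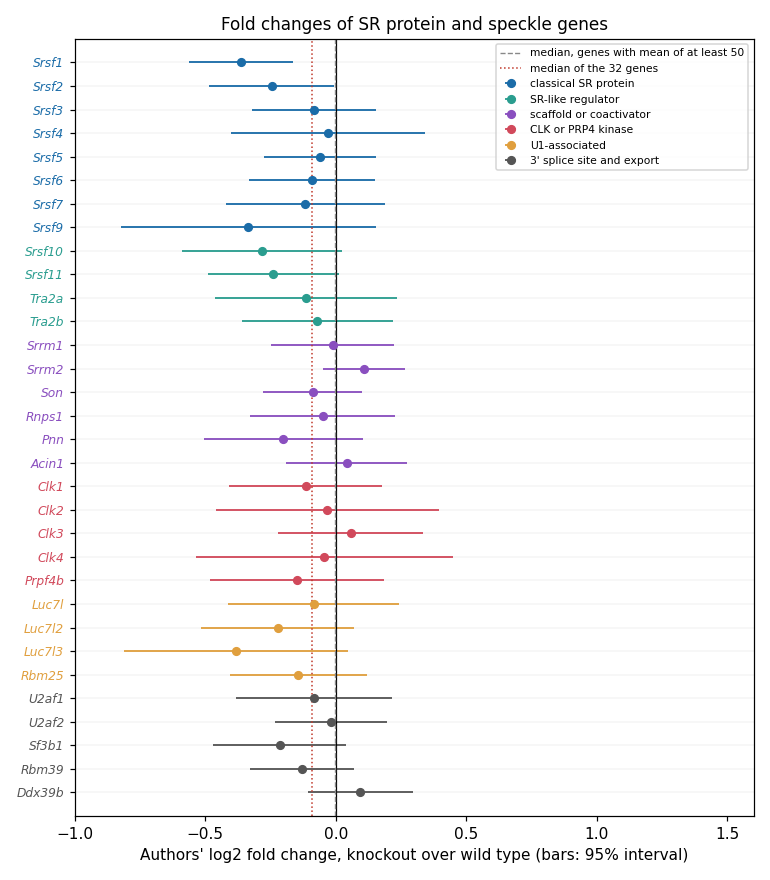
The authors' log2 fold change, knockout over wild type (x axis), of the 32 genes (y axis), coloured by role, with bars for the 95% interval from its SE. Points lie left of 0 in 28 genes, the bars of Srsf1 and Srsf2 alone exclude 0, and the dotted line marks the median of the 32 genes (-0.090), the dashed line that of genes with a mean of at least 50 (-0.0032).

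These intervals give a range around each fold change, in which genotype and series cannot be told apart. The authors' Wald statistic had an SD of 0.76 over genes with a mean of at least 50. That is narrower than the standard normal scale on which the intervals rest. In the authors' deposited table the SE ran from 0.079 to 0.25 over the 32 genes. Its median was 0.14 in the set and 0.27 over genes with a mean of at least 50. The 95% interval stayed within 1.5-fold in either direction in 29 of them, the exceptions being Srsf9, Luc7l3 and Srsf10, and within 2-fold in all 32. The lower bounds of these 3 genes were 0.565, 0.569 and 0.665 of the wild-type level by the authors' deposited table. Genes that missed the threshold are not shown to be unchanged.

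The knockout replicates differed about as much in this set as in equally abundant genes, with a lean towards replicate 2. The absolute log2 ratio between the libraries had a median of 0.078 over the 32 genes, against 0.106 over genes with a mean of at least 50 and 0.086 over genes at least as abundant as Clk4. Replicate 2 was higher than replicate 1 in 25 of 32 genes, where 49.3% of genes with a mean of at least 50 were. The median log2 ratio, replicate 2 over replicate 1, was 0.058 in the set and -0.0028 in those genes. In 18 of the 32 genes the difference exceeded counting error, by a 95% interval from the counts alone that covers no other error. That interval narrows as counts grow, and the same share over all genes is not given here, so the count is not read as a trait of the set. Luc7l2 (0.26), Srsf1 (0.25) and Prpf4b (0.17) differed most upwards and Clk3 (-0.15), Srsf4 (-0.13) and Srsf5 (-0.12) most downwards.

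In level, the set belonged to the more abundant part of the transcriptome. All 32 genes lay in the upper 50% of knockout means among genes with a mean of at least 50, and 14 in the upper 10%. Per kilobase of merged exons the set had a median of 536 normalized counts, against 171 in those genes. Srsf5 (1949), Ddx39b (1866) and U2af2 (1444) stood at the top per kilobase, and Clk4 (149), Rbm25 (217) and Clk2 (219) at the bottom. The 32 genes lie on 14 chromosomes, 7 of them on chromosome 17 and 4 on chromosome 11.

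Transcript sequence moved with the fold changes. The mean GC content of annotated transcripts had a median of 47.5% in the set, against 50.6% in genes with a mean of at least 50, and 15 of 32 genes lay in the lowest 25% of those genes by GC content, under 46.2%. The median log2 fold change, by the authors' deposited table, was -0.062 in the 25% of genes with the lowest GC content and 0.045 in the 25% with the highest, among those with a mean of at least 50. Within the set, fold change and GC content had a Pearson correlation of 0.51 and a Spearman correlation of 0.57 over 32 genes, against 0.091 and 0.25 over 10741 genes, given as descriptions across genes of the same libraries. The 10741 genes include less abundant ones. The SE had a median of 0.27 over genes with a mean of at least 50, against 0.14 in the set. The correlations are therefore not like for like. Sf3b1 (40.5% GC) and Luc7l3 (41.3%) lay low in GC content and fold change, and Ddx39b (55.2%) high in both. Srsf1 (47.4%), Srsf2 (49.5%) and Srsf9 (50.5%) lay well below the trend at their GC content. Luc7l3 and Sf3b1 lay below the trend too, at -0.30 and -0.13 once it was subtracted. After the trend over all genes was subtracted, 26 of 32 fold changes stayed below 0, where 51.1% of genes with a mean of at least 50 did, and the median was -0.071. Srsf1 then stood at -0.36 with an adjusted p of 0.222, recomputed from the DESeq2 standard errors of the authors' deposited table.

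**Figure D4:**
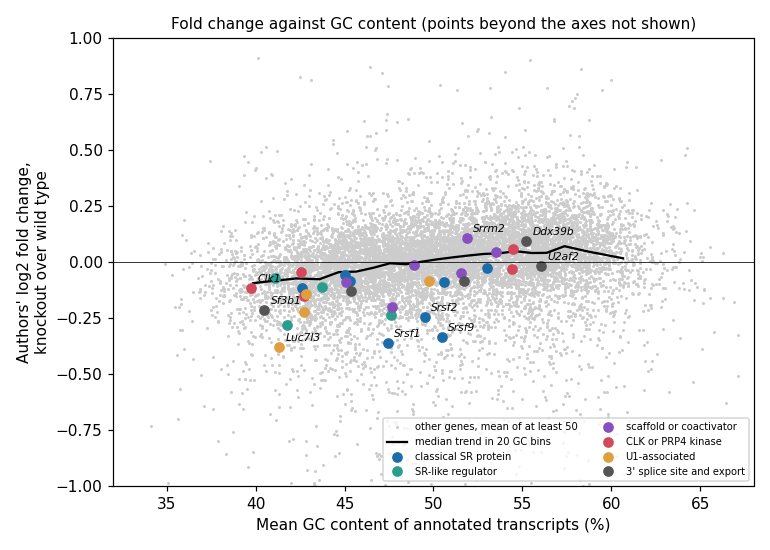
The authors' log2 fold change, knockout over wild type (y axis), against the mean GC content of annotated transcripts in percent (x axis), for the 32 genes (coloured by role) and other genes with a mean of at least 50 (grey); the black line joins the medians of 20 GC bins. The line lies at -0.095 in the bin of lowest GC content and reaches 0.070 in the bin at 57.4%. Luc7l3 and Sf3b1 lie towards low GC content and below the line, and Srsf1, Srsf2 and Srsf9 also lie below it.

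The set was rich in annotated isoforms that are not translated in full. In GENCODE M21, 28 of the 32 genes (87.5%) have at least 1 transcript marked as a target of nonsense-mediated decay, against 30.4% of 10966 protein-coding genes with a mean of at least 50. A retained-intron transcript is annotated for 30 of 32 genes (93.8%), against 61.7%. The genes of the set have more annotated transcripts in all, with a median of 10 against 5. Rbm39 has 8 transcripts marked for decay, and Srsf10, Rnps1, Acin1 and Ddx39b have 0. The deposited counts are 1 value per gene, so productive and decaying isoforms cannot be told apart in them. In addition 15 of the 32 genes overlap another annotated gene, 13 of them one on the other strand, among them Son with Donson and Clk3 with Edc3.

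Other genes of the pathway also held no call, where 0.159% of the 14481 genes with an adjusted p passed in either direction. Among all genes with a mean of at least 50, 50.9% lay below 0. Of 32 further RS-domain and speckle proteins measured, 0 passed in either direction by the authors' deposited table (DESeq2, adjusted p under 0.05), and 18 of the 29 with a mean of at least 50 lay below 0, with a median of -0.044. Arglu1, an arginine-rich coactivator, had -0.53 (SE 0.28) and Zranb2, a zinc finger splicing factor, -0.28 (SE 0.17) in the authors' deposited table. Of 9 SR protein kinases and phosphatases 0 passed and 5 lay below 0, with the phosphatase subunits Ppp1cb at -0.44 (SE 0.17, unadjusted p = 0.0111) and Ppp1ca at 0.082 (SE 0.099) in the authors' deposited table. Of 13 genes of the exon junction complex and nonsense-mediated decay 0 passed and 9 lay below 0, with Upf2 at -0.15 (SE 0.23) and Magoh at -0.15 (SE 0.24) in the authors' deposited table. Of 13 mRNA export genes 0 passed and 8 lay below 0, with the THO subunits Thoc2 at -0.27 (SE 0.18) and Thoc1 at -0.27 (SE 0.23) in the authors' deposited table. Of 16 SF3 complex and 3′ splice site factors 0 passed, and 8 of the 15 with a mean of at least 50 lay below 0, with Sf1 at -0.098 (SE 0.10) and Sf3a1 at -0.084 (SE 0.14) in the authors' deposited table. At an unadjusted p under 0.05, Ppp1cb was the 1 gene of these 5 lists by the authors' DESeq2. Over all genes 1.72% were lower and 0.391% higher at that threshold. The kinases and phosphatases had a median log2 fold change of -0.15 by the authors' deposited table, against -0.090 in the set. The medians were -0.069 for the exon junction complex and decay genes, -0.075 for the export genes and -0.042 for the SF3 list.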

How the data were processed

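The data are 1 table that the authors deposited. It holds raw counts, as whole reads for each gene. Its normalized counts, a signal that the authors made by dividing counts by 1 size factor per library, come with a mean over the 4 libraries of their fit. The authors deposited log2 fold changes with standard errors, the Wald statistic (a score) and p-values, from DESeq2 1.18.1 per the submitters' processing notes, which also name STAR 2.6.1a, featureCounts and mm10. Annotation and strand setting were not stated. The authors' name for the deposited results includes the word multifactor, but the factors of the model were not stated. The table has 4 further columns of per-sample values, for libraries outside the samples analysed, and these were left unread, so no new test between genotypes was run.

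Fold changes were read as knockout over wild type, since a positive sign went with a knockout mean above the authors' mean, and a negative one with a lower one, in 97.8% of genes. The implied wild-type mean is what the mean over 4 libraries leaves once both knockout values are taken out. For the 32 genes its log2 ratio differed from the authors' fold change by at most 0.022. Merged exon length, GC content, isoform classes and coding sequences came from GENCODE M21 (GRCm38), which matched 99.9% of gene IDs and all 32 members. Intervals span 95% from the SE, on a normal scale. The GC trend was the median fold change in 20 bins, fitted on genes with a mean of at least 50, without 235 genes whose knockout mean was under 2% of an implied wild-type mean that reached 100, and was tested on simulated data. edgeR 4.0.16 supplied TMM factors as an alternative scaling of replicates. Python 3.11.15, numpy 2.4.6 and R 4.3.3 were used. The replicates were different libraries, with a chi-square of 9.60 per degree of freedom over 14960 genes.

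All 32 members were named. The 8 classical SR proteins and, in each other role, the 2 genes with the smallest p-value are given by library. Of each pathway list the 2 genes with the smallest p-value and a mean of at least 50 are named, and further genes were chosen once values were known. Members and lists were chosen with earlier results of these data known. One further T cell marker of the list is not reported here.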

Additional observations from a re-analysis of the deposited data

How the results depend on the processing

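The count of 0 called genes held without the independent filter, over genes with a mean of at least 50 alone (Srsf1 adjusted p 0.115, DESeq2 p-values of the authors), at a threshold of 0.1 and with the GC trend removed. The number of genes below 0 was 28, and 26 to 29 under the alternatives. The median log2 fold change of -0.090 was -0.15 without replicate 2 and -0.066 without replicate 1, and between -0.092 and -0.070 under the ratio to the implied mean, centring on all genes and the GC and length trends. The ratio to the implied mean rests on the same fit as the fold change, so it is no separate check. Values near 0 changed sign. Without replicate 1 and without replicate 2 in turn, Srsf4 ranged over -0.093 and 0.033, Srsf5 over -0.12 and 0.00048, and Clk3 over -0.022 and 0.13. Tra2b stood at 0.014 and Clk4 at 0.030 once the GC trend was subtracted, and at 0.018 and 0.021 with GC and length trends subtracted together. The cause of these changes was not tested. The median log2 ratio of replicate 2 over replicate 1 was 0.058, 0.087 by library totals and 0.062 with TMM. No paired analysis was possible because only the knockout libraries are among the samples. With 2 libraries, differences of a few percent were within the replicate spread.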

Other observations

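The hnRNP genes, whose products bind pre-mRNA and often oppose SR proteins in exon choice, were looked at beside the SR protein set. By the authors' deposited table, 24 of 26 had a fold change below 0, with a median of -0.20, and 0 passed an adjusted p of 0.05 while 8 were lower at an unadjusted p under 0.05 (DESeq2). Among genes with a mean of at least 50, 50.9% lay below 0 and 1.9% were lower at an unadjusted p under 0.05, and 0.159% of genes with an adjusted p passed. Hnrnpa2b1 had normalized counts of 20155 and 22445 in knockout libraries against an implied wild-type mean of 25539, and a log2 fold change of -0.26 (SE 0.071, adjusted p 0.120, DESeq2) in the authors' deposited table. Syncrip had 4260 and 4694 normalized counts in knockout libraries against 6034, and -0.42 (SE 0.12, adjusted p 0.246, DESeq2) in the authors' deposited table. Their transcripts were lower in GC content than those of the SR protein set, with medians of 45.3% and 47.5%, and after the GC trend was subtracted the median of the hnRNP genes was -0.16. The difference between the sets was not tested.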
